A study of Mus musculus with 12 samples.

Results

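ATF4 is a transcription factor whose protein is made when the initiation factor eIF2 is phosphorylated, as happens when amino acids run short or unfolded protein builds up in the endoplasmic reticulum. It binds DNA as a dimer, often with a C/EBP family partner, and switches on genes that make, import and spare amino acids, together with genes that limit or end the response. In liver the same programme includes FGF21, a hormone released into the blood during fasting and amino acid or protein restriction.

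The 10 genes described here are Atf4 itself and 9 of its known targets: the transcription factor gene Ddit3 (CHOP), the stress genes Trib3, Chac1 and Sesn2, the hormone gene Fgf21, the amino acid synthesis genes Asns, Psat1 and Phgdh, and the transporter gene Slc1a4. They were taken by symbol from a table of 27304 genes, and all 10 were among the 13641 genes that had enough counts to be tested. The genes were chosen by their place in this pathway with earlier results on the genotype difference in these livers known. Their genotype differences are therefore given as a description without a p-value, and only the comparisons between the sexes and of the genotype difference between the sexes carry tests.

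RNA-seq libraries had been made from total RNA of 12 mouse livers, 3 in each of 4 groups. All mice were Apoe-/-, without apolipoprotein E, a carrier of plasma lipoproteins, and all had 12 weeks on a diet labelled HFD. The controls were Apoe-/- males and Apoe-/- females, and the Ahr-null groups were Apoe-/-AhR-/- males and Apoe-/-AhR-/- females, which also lack the aryl hydrocarbon receptor, a transcription factor activated by ligands. The diet's composition, the mice's age beyond that diet time and the design of the Ahr allele are not stated in the labels. The question named in the series is how this receptor affects the mouse liver.

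Library totals ran from 9794253 to 18924880 counts. Levels are given as CPM, counts scaled to a common library total and then by TMM factors, on which a single count was worth 0.0394 to 0.109 CPM. All 10 hepatocyte markers had counts in every library. Replicate 1 of the control males and replicate 1 of the Ahr-null females stood apart: the 30 neuronal and glial markers summed to 475.6 and 882.7 CPM there and to 54.75 to 81.06 CPM in the other 10 livers, and all 30 had counts in these libraries while 6 to 9 were at 0 in each of the others. Results are therefore also given for the 10 livers without these 2. Below, the 2 are called the livers with neural transcripts and the 10 those without. This is a matter of level, since most of the 30 markers had counts in each of the 10 too. Ahr itself, counted over the whole gene, ran from 12.4 to 25.0 CPM in controls and from 13.7 to 24.5 CPM in Ahr-null livers. A count over the whole gene need not fall where part of it is deleted, so it checks nothing here. Cyp1a2, a known AhR target, ran from 452 to 1170 CPM in controls and from 47.0 to 217 CPM in Ahr-null livers (log2 fold change -3.05 ± 0.36 SE, edgeR adjusted p = 0.00663).

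Promoters of the 10 genes were searched for TGATGNAA, the core of the element that ATF4 binds with a C/EBP partner, on both strands of the stretch from 250 bases before to 50 bases after the start in RefSeq's table (build GRCm38.p6). It was found for 5 of the 10 genes, beside 4.51% of the 27025 genes and 3.97% of the 32851 promoters in that table. Among 50 other ATF4 target genes, 39 had a promoter in the table and 13 of these held the motif (33.3%). Both lists were chosen as known ATF4 targets, so a share above that of all genes was built in by the choice. Asns, Slc1a4 and Fgf21, which hold the motif, have the 3 largest averaged genotype differences of the 10. Chac1 and Trib3 hold it too, at log2 fold changes of -0.45 and 0.47, and Psat1, at 1.90, does not. These differences were known when the genes were chosen, and a link between motif and difference was not tested. The matching stretches read 5′ to 3′ along the gene, with the 8 bases of the motif in capitals. That of Asns is on the gene's own strand, and the others read as the reverse complement.
Fgf21: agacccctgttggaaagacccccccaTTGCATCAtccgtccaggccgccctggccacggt
Slc1a4: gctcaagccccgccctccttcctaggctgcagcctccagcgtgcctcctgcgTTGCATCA
Asns: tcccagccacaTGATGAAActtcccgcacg
Chac1: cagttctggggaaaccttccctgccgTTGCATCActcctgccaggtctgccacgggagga
Trib3: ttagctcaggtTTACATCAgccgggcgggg

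The Fgf21 stretch lies at chr7:45615596-45615655 on the minus strand, with the motif 139 to 132 bases before the start. The Slc1a4 stretch lies at chr11:20332710-20332769 on the minus strand, and its motif spans the start. The Asns stretch, at chr6:7693214-7693243 on the minus strand, has the motif 23 to 16 bases before the start. In Chac1, at chr2:119351023-119351082 on the plus strand, it lies 193 to 186 bases before the start. In Trib3, at chr2:152344028-152344057 on the minus strand, it lies at bases 15 to 22 from the start. The same letters are not in this window for Atf4, Ddit3, Sesn2, Phgdh or Psat1.

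On levels per kilobase of exon, averaged over the 12 livers, Atf4 was the most abundant of the 10 at 36.7 CPM per kb, followed by Ddit3 at 16.4 and Fgf21 at 11.8. Trib3 reached 3.76, Sesn2 2.20, Slc1a4 1.15, Chac1 1.10 and Asns 1.02 CPM per kb, and the serine synthesis genes Phgdh and Psat1 were lowest at 0.532 and 0.273. Atf4 and Ddit3 were thus read from 718 or more and 135 or more counts per library, whereas Asns and Psat1 had as few as 0 and 1. Atf4 was also the steadiest, with the highest liver 1.84 times the lowest, and Sesn2 and Ddit3 followed at 3.12 and 3.84 times. Chac1, Fgf21 and Psat1 varied most among the genes with a count in every liver, by 36.7, 49.3 and 53.4 times.

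**Figure D1:**
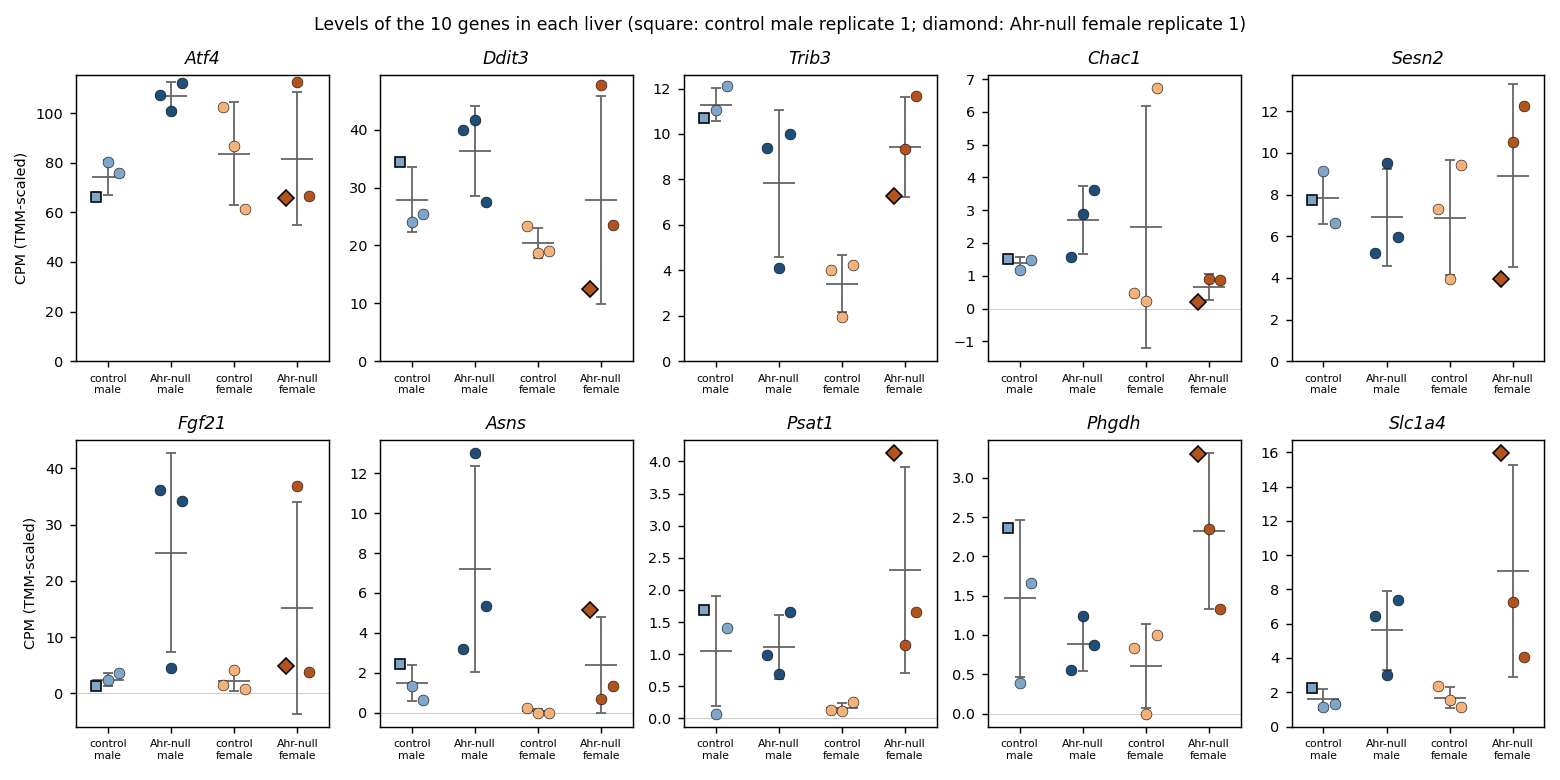
Level of each of the 10 genes (vertical axis, TMM-scaled CPM, a scale per gene) in the 4 groups of 3 livers (horizontal axis). Each point is a liver, the horizontal mark is the group mean and the bar its SD. The square and the diamond mark the livers with neural transcripts. Slc1a4 and Asns are higher in all 3 Ahr-null livers than in all 3 controls of the same sex, and Fgf21 is at 34.3 to 36.9 CPM in 3 Ahr-null livers and under 5 CPM in the other 9.

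Averaged over the sexes, 2 of the 10 genes, Asns and Slc1a4, were past an edgeR adjusted p of 0.05 and higher in Ahr-null livers, and none was lower. Over all tested genes 72 (0.528%) were higher and 72 (0.528%) lower, and since the genes were chosen on this difference nothing is read from their count. When libraries were scaled by their totals alone, the split over all genes was 986 higher and 67 lower. The 10 genes had a median log2 fold change of 0.51, with 9 of 10 above 0, beside 0.04 for all tested genes. With both livers that held neural transcripts left out it was 0.66 beside 0.03, and the same 2 genes were called, where 1.50% of 13768 genes were higher. The count of 2 changed when single livers were left out. It was 0 without control male replicate 2 or 3, any of the 3 control females, or Ahr-null male replicate 1 or 3, and 1 without control male replicate 1 or Ahr-null female replicate 3. Calls over all genes fell as well, from 144 with all livers to between 6 and 33 where the count was 0. They fell to 71 and 103 where it was 1. With a liver left out, the averaged log2 fold change ran from 2.90 to 5.23 for Asns and 1.80 to 2.29 for Slc1a4. Within the sexes, none of the 10 was called in males, where 0.0367% of all genes were. None was called in females, where 22 of 13641 genes were, 4 higher (0.0293%) and 18 lower. At an unadjusted p under 0.05 there were 3 of 10 in males and 6 of 10 in females, where 5.81% and 14.4% of all genes were, and DESeq2 called 0 and 4, where it called 0.777% and 3.60% of all genes.

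**Figure D2:**
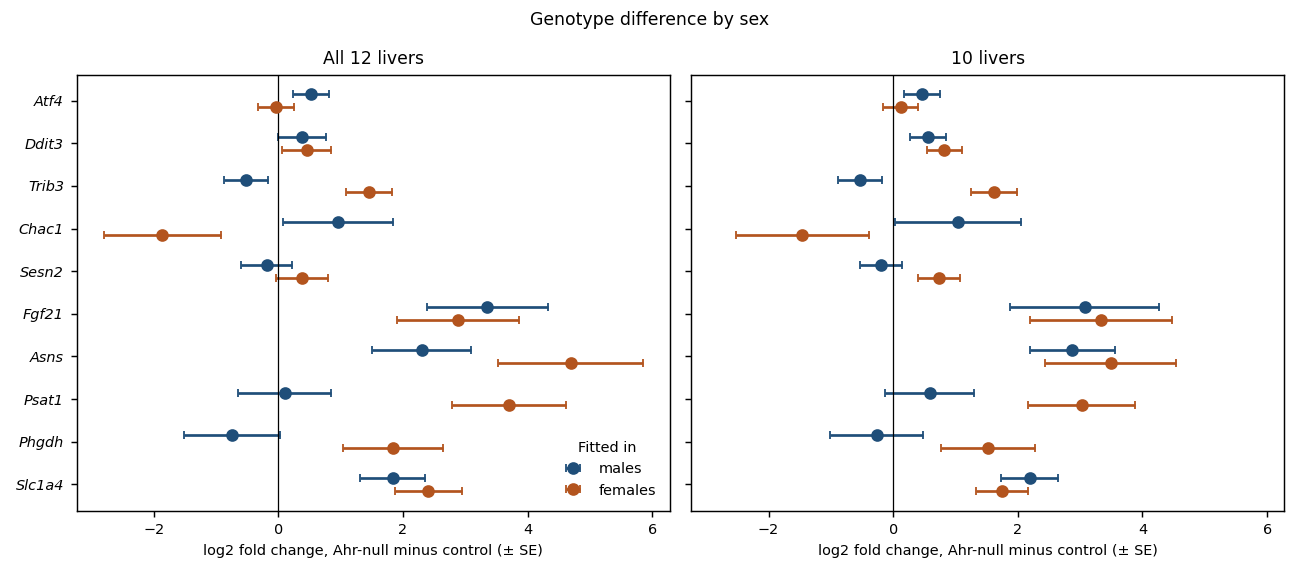
Fitted log2 fold change of Ahr-null against control livers (horizontal axis, bars ± SE) for each of the 10 genes (vertical axis), in males (blue) and females (orange), with all 12 livers (left) and with the 10 livers low in neural transcripts (right). Asns, Slc1a4 and Fgf21 lie to the right of 0 in both sexes and in both panels, and Trib3 lies left of 0 in males and right of 0 in females.

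Atf4 encodes the factor itself, and its main control is known to lie in translation, which RNA-seq does not read. It stood at 66.3, 80.3 and 75.7 CPM in control males and at 107, 101 and 112 CPM in Ahr-null males (replicates 1, 2 and 3 throughout). All 3 Ahr-null males were thus above all 3 control males, with means of 74.1 ± 7.17 and 106.7 ± 5.67 CPM (SD, n = 3 each). In females the values were 102, 86.8 and 61.4 CPM in controls and 65.9, 113 and 66.4 CPM in Ahr-null livers, and these overlapped. The log2 fold change was 0.53 ± 0.29 in males and -0.03 ± 0.29 in females (SE). The female value was 0.12 without the livers with neural transcripts and 0.53 with library size alone, so its sign is not settled.

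Ddit3 encodes CHOP, a C/EBP family factor known for its part in stress-induced cell death. Control males had 34.4, 24.0 and 25.4 CPM and Ahr-null males 39.9, 41.6 and 27.5 CPM. Control females had 23.4, 18.8 and 19.0 CPM and Ahr-null females 12.4, 47.6 and 23.5 CPM. The groups overlapped in both sexes, and the livers with neural transcripts held the highest value among control males and the lowest among Ahr-null females. Without them every Ahr-null liver was above every control of its sex, and the averaged log2 fold change went from 0.42 ± 0.28 to 0.69 ± 0.20. Without Ahr-null female 2, the liver with the highest Ddit3, it was 0.10, and the female value went from 0.45 ± 0.39 to -0.18. The annotation holds another Ddit3 gene model on the same strand that shares 2925 bases with it, and Mars overlaps 68 bases of it on the opposite strand. The labels do not state whether reads were counted by strand, so reads of overlapping models cannot be told apart.

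Trib3 encodes a pseudokinase that binds ATF4 and CHOP and damps their activity. In control females it stood at 4.0, 2.0 and 4.25 CPM, and in Ahr-null females at 7.26, 9.32 and 11.7 CPM. Every Ahr-null female was above every control female, and the means were 3.40 ± 1.25 and 9.41 ± 2.20 CPM (SD, n = 3 each). In control males it stood at 10.7, 11.1 and 12.1 CPM, and in Ahr-null males at 9.39, 4.11 and 9.99 CPM, so that every Ahr-null male was below every control male. The log2 fold change was 1.45 ± 0.37 in females and -0.52 ± 0.35 in males, the latter turning to 0.03 when libraries were scaled by their totals alone. With a liver left out the male value ran from -0.73 to -0.22. Without the livers with neural transcripts Trib3 was the only one of the 10 called higher in females, at 1.62 ± 0.37, where 0.763% of all genes were.

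Chac1 encodes an enzyme that degrades glutathione, and it was scarce. Control males had 1.52, 1.16 and 1.47 CPM and Ahr-null males 1.58, 2.87 and 3.63 CPM, a difference without overlap but with 1.52 and 1.58 CPM side by side. Among control females, replicate 3 had 6.74 CPM beside 0.48 and 0.22 CPM in replicates 1 and 2, and Ahr-null females had 0.18, 0.90 and 0.88 CPM. That control liver held the highest Chac1 level of all 12. The averaged log2 fold change of -0.45 ± 0.64 became 0.92 without it, and the female one went from -1.86 ± 0.94 to 0.88. Sesn2 encodes sestrin 2, a leucine-binding inhibitor of the growth kinase complex mTORC1. It ran from 6.63 to 9.14 CPM in control males, 5.21 to 9.54 CPM in Ahr-null males, 3.93 to 9.41 CPM in control females and 3.95 to 12.3 CPM in Ahr-null females. These ranges overlapped throughout, and its averaged log2 fold change was 0.09 ± 0.29. An annotated RNA on its strand, Gm12981, overlaps 6089 bases of it.

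Fgf21 encodes the hormone, and its level fell into 2 ranges. It stood at 36.3 and 34.3 CPM in Ahr-null males 1 and 3 and at 36.9 CPM in Ahr-null female 2. The other 3 Ahr-null livers had 4.58, 4.87 and 3.87 CPM (male 2, females 1 and 3), and the 6 controls 0.75 to 4.15 CPM. The 3 high livers were thus about as high as each other, and the lower 3 were close to the top of the controls, the female 3 value below control female 2 at 4.15 CPM. Means were 2.43 ± 1.19 CPM in control males, 25.0 ± 17.7 in Ahr-null males, 2.14 ± 1.78 in control females and 15.2 ± 18.8 in Ahr-null females (SD, n = 3 each). The averaged log2 fold change was 3.11 ± 0.69, with 3.35 ± 0.97 in males and 2.88 ± 0.98 in females. It was not called in the fit of all livers although its fold was near that of Asns. In the 10 livers without neural transcripts it was 3.20 ± 0.83. Left without Ahr-null female 2, the averaged value was 2.21 and the female one 1.06.

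Asns encodes asparagine synthetase, which makes asparagine from aspartate with glutamine as the nitrogen donor. In control females it had 3, 0 and 0 counts, or 0.21 CPM in replicate 1 and, at 3 counts, limits of 0.327 and 0.250 CPM in replicates 2 and 3. Ahr-null females had 56, 11 and 24 counts, or 5.14, 0.66 and 1.33 CPM. Control males had 29, 17 and 10 counts (2.44, 1.32 and 0.64 CPM), and Ahr-null males 81, 168 and 136 counts (3.20, 13.0 and 5.37 CPM). Both sexes thus separated by genotype without overlap, and Ahr-null females 2 and 3 stood within the range of the control males. The summed counts differed by 4.38 times in males (exact 95% interval 3.3 to 5.9) and by 23.7 times in females (7.86 to 117), intervals that cover counting error only. In the other 10 livers these ratios were 6.42 and 12.0, the latter with an interval from 3.78 to 60.9. The fitted log2 fold change was 3.49 ± 0.70 averaged, 2.30 ± 0.80 in males and 4.69 ± 1.16 in females. The female value was 8.15 without control female 1. Averaged, it was 5.23 without that liver, the control female with counts, and 2.90 without Ahr-null female 1.

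Psat1 and Phgdh encode enzymes of serine synthesis from a glycolytic intermediate. Psat1 had 2, 1 and 3 counts in control females (0.14, 0.11 and 0.25 CPM) and 45, 19 and 30 counts in Ahr-null females (4.13, 1.14 and 1.66 CPM). All Ahr-null females were above all control females, by 12.2 times in summed counts (exact 95% interval 5.42 to 34.2) and by 8.38 times without Ahr-null female 1. In males the 1.68, 0.08 and 1.40 CPM of controls overlapped the 0.99, 0.70 and 1.66 CPM of Ahr-null livers, and the log2 fold change was 0.10 ± 0.74 against 3.70 ± 0.92 in females. Phgdh had 0.83, 0 and 1.0 CPM in control females and 3.31, 2.35 and 1.33 CPM in Ahr-null females, again without overlap. In males it had 2.36, 0.39 and 1.66 CPM in controls and 0.55, 1.24 and 0.87 CPM in Ahr-null livers. The Phgdh log2 fold changes were 1.85 ± 0.80 in females and -0.75 ± 0.77 in males. A pseudogene on the opposite strand, Gm3329, overlaps 556 bases of Psat1.

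Slc1a4 encodes ASCT1, a carrier of alanine, serine, cysteine and threonine. It stood at 2.27, 1.16 and 1.34 CPM in control males and 2.35, 1.53 and 1.17 CPM in control females. Ahr-null males had 6.43, 3.02 and 7.38 CPM and Ahr-null females 16.0, 7.28 and 4.03 CPM. Every Ahr-null liver was above every control of either sex. The log2 fold change was 2.12 ± 0.37 averaged, 1.83 ± 0.52 in males and 2.41 ± 0.53 in females, and 1.97 ± 0.31 averaged without the livers with neural transcripts. It was the most evenly changed of the called pair between the sexes and the one with the smaller SE.

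Counted over the 10 genes, Ahr-null livers lay above the controls without overlap for 5 in males (Atf4, Chac1, Fgf21, Asns and Slc1a4), where 6.55% of all tested genes did, and below for Trib3 alone, where 7.34% did. In females they lay above for 5 (Trib3, Asns, Psat1, Phgdh and Slc1a4), where 9.22% of all genes did. Asns and Slc1a4 were in both sets, where 1.28% of all genes were. These counts describe the choice of the genes.

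Slc1a4, Psat1 and Phgdh are also known as genes of brain cells, and their highest level among the 12 livers was in Ahr-null female 1, the liver with the most neural transcripts. The control with such transcripts, control male 1, had the highest Asns, Psat1 and Phgdh of the 6 controls. Slc1a4 there, at 2.27 CPM, was below control female 1 at 2.35 CPM. The part of neural RNA in these levels was not tested. Without both livers the averaged log2 fold changes were 3.19 ± 0.61 for Asns, 1.97 ± 0.31 for Slc1a4, 1.8 ± 0.56 for Psat1 and 0.63 for Phgdh, beside 3.49, 2.12, 1.90 and 0.55 with them.

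**Figure D3:**
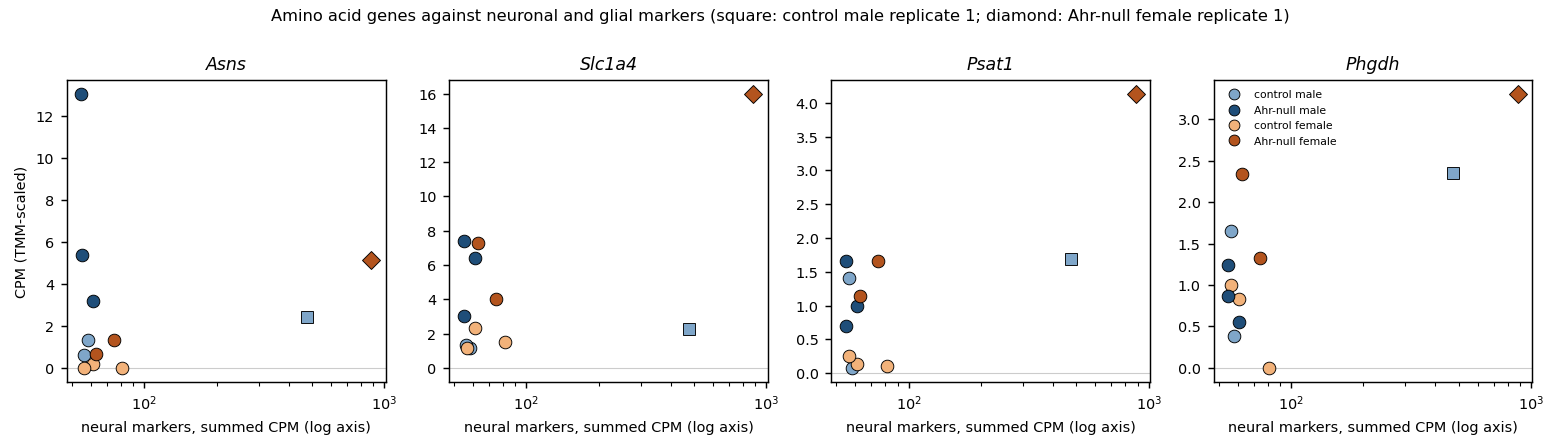
Levels of Asns, Slc1a4, Psat1 and Phgdh (vertical axes, TMM-scaled CPM) against the summed level of 30 neuronal and glial markers (horizontal axes, CPM, log scale), a point per liver, coloured by group. The square (control male 1) and the diamond (Ahr-null female 1) lie at 475.6 and 882.7 CPM of markers, apart from the other 10 livers at 54.75 to 81.06.

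Other cell type markers also differed between livers. The 7 matched of 8 T and B cell markers summed to 2.19 to 8.35 CPM in controls and 7.52 to 19.5 CPM in Ahr-null livers, and the 10 hepatocyte markers to 19460 to 25570 CPM and 24660 to 74840 CPM. The 74840 CPM was that of Ahr-null female 1, and the 10 livers without neural transcripts reached at most 41790 CPM. The T and B cell and the hepatocyte ranges overlapped between genotypes. Stellate cell, cholangiocyte, Kupffer cell, endothelial and red blood cell markers had counts in every liver and overlapped between genotypes as well. Ahr-null female 1 also had the highest stellate cell and cholangiocyte sums, at 844 and 262.5 CPM. The 10 livers without neural transcripts reached at most 433.6 and 118.8 CPM. Of the 10 exocrine pancreas markers 3 to 8 were at 0 in each liver, and the sum was at most 8.08 CPM. The 4 adipocyte markers summed to at most 9.05 CPM, with 1 to 3 of them at 0. Mitochondrially encoded protein genes took 30.4% to 69.8% of counts, from 46.7% to 69.8% in controls and from 30.4% to 59.8% in Ahr-null livers. Their part in the levels above was not tested. In such bulk samples, fewer cells of a type and less RNA per cell cannot be told apart.

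The genotype difference did not pass the test of a difference between the sexes for any of the 10 genes. At an edgeR adjusted p under 0.05, 0 of the 10 passed where 0.00733% of all genes did, and 4 of 10 had an unadjusted p under 0.05 where 4.60% of all genes did. DESeq2 passed 0 of the 10 and 0.147% of all genes. The 4 were Trib3, Psat1, Phgdh and Chac1. For Trib3 the male minus female difference in log2 fold change was -1.97 ± 0.51 (edgeR adjusted p = 0.836). It was -3.60 ± 1.19 for Psat1 (edgeR adjusted p = 0.883), -2.59 ± 1.11 for Phgdh and 2.82 ± 1.30 for Chac1 (edgeR adjusted p = 0.999 for both). In the 10 livers without neural transcripts only 1 of the 10 genes, Trib3, had an unadjusted p under 0.05, where 1001 of 13768 genes did. The Trib3 value there was -2.15 ± 0.51 (edgeR adjusted p = 0.419), that of Psat1 -2.44 and that of Phgdh -1.78. By limma on the deposited values the last 2 were -1.32 and -1.52. The Chac1 value rested on control female 3 and was 0.08 without that liver. For the other 6 genes the difference was 0.56 ± 0.41 for Atf4, -0.07 ± 0.55 for Ddit3, -0.56 ± 0.59 for Sesn2, 0.47 ± 1.32 for Fgf21, -2.39 ± 1.46 for Asns and -0.58 ± 0.73 for Slc1a4 (edgeR adjusted p = 0.999 for each). Without the livers with neural transcripts Atf4 was at 0.35, Ddit3 at -0.26 and Sesn2 at -0.93. There Fgf21 was at -0.26, Asns at -0.62 and Slc1a4 at 0.45. The errors are wide, and a p that misses the threshold does not show that the sexes responded alike.

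Males and females were next compared within each genotype. In controls all 3 males were above all 3 females for Asns, Ddit3 and Trib3, where 9.38% of all genes were. The Trib3 means of 11.3 ± 0.732 CPM in males and 3.40 ± 1.25 CPM in females (SD, n = 3 each) differed by 1.71 ± 0.37 on the log2 scale (edgeR adjusted p = 0.0968), which did not pass. Asns differed by 4.02 ± 1.19 (edgeR adjusted p = 0.408) and Psat1 by 2.60 ± 0.94 (edgeR adjusted p = 0.661). The Asns value was 7.51 without control female 1, the control female with counts, and 1.56 by limma on the deposited values. That of Psat1 was 0.77 by limma on the deposited values, 1.73 with limma-voom and 2.13 to 3.16 with a liver left out. In all, 0 of 10 passed where 0.352% of all genes did. These 3 genes had an unadjusted p under 0.05, where 5.79% of all genes did, and DESeq2 called 2 of them, Trib3 and Asns, where it called 1.04% of all genes. The Trib3 difference in controls passed in edgeR when Ahr-null male 2 or Ahr-null female 1 was left out, where 53 and 101 of all genes did. Without both livers with neural transcripts it was 1.76 ± 0.37 (edgeR adjusted p = 0.0576). Asns was then at 3.43 ± 1.08 and Psat1 at 2.15 ± 0.92 (edgeR adjusted p = 0.280 and 0.441). There 0 of 10 passed, where 79 of 13768 genes did.

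In Ahr-null livers the sex difference of Trib3 was -0.26 ± 0.35 (edgeR adjusted p = 0.893). Chac1 was above in all 3 males, where 4.83% of all genes were, and Phgdh below in all 3, where 6.38% were. The differences of 1.97 ± 0.93 for Chac1 and -1.40 ± 0.76 for Phgdh did not pass (edgeR adjusted p = 0.591 and 0.659). By edgeR 0 of 10 passed, where 0.279% of all genes did, and 0 had an unadjusted p under 0.05, where 8.68% did. DESeq2 also passed 0 of the 10, where it passed 1.63% of all genes. Asns differed by 1.62 ± 0.77 (edgeR adjusted p = 0.590). Without the livers with neural transcripts 0 of 10 passed in edgeR, where 110 of 13768 genes did. There 2 of 10 had an unadjusted p under 0.05, where 2042 of 13768 genes did. They were Asns at 2.81 ± 0.66 and Sesn2 at -0.74 ± 0.33 (edgeR adjusted p = 0.0793 and 0.320). The 2 sex comparisons share no livers, and the difference between them is the interaction given above.

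Beyond the 10 genes, 50 other known ATF4 targets were examined, of which 48 were tested. This list and those below were also drawn up with earlier results of these livers known, so their p-values are not independent evidence of a direction. Averaged over the sexes 2 of the 48 rose in Ahr-null livers, 0 fell and 46 did not pass, and 17 had an unadjusted p under 0.05 where 15.3% of all genes did. By DESeq2 9 passed, where 4.87% of all genes did. Their median log2 fold change was 0.23, with 34 of 48 above 0, beside 0.04 for all tested genes. Atf5, a stress-induced factor of the same family as Atf4, stood at 128 ± 21 and 154 ± 32.9 CPM in control males and females and 377 ± 114 and 326 ± 48.3 CPM in Ahr-null ones (SD, n = 3 each). It rose without overlap in either sex (log2 fold change 1.32 ± 0.23, edgeR adjusted p = 0.0186). Mthfd1l, a mitochondrial enzyme of folate metabolism, rose by 2.37 ± 0.43 (edgeR adjusted p = 0.0226). It went from 0.295 ± 0.196 CPM in control females to 4.28 ± 2.05 CPM in Ahr-null females, and overlapped between control males at 0.933 ± 0.309 and Ahr-null males at 1.79 ± 0.993 CPM. Within males 0 of the 48 passed, where 0.0367% of all genes did. Unadjusted, 10 were under 0.05 and DESeq2 called 3, where 5.81% and 0.777% of all genes were. Within females Mthfd1l rose by 3.79, a call that held without Ahr-null male 2 or Ahr-null female 1 and was lost without any other single liver. In the fits where it was lost, 3 to 5 of all genes were called in females, beside 22 with all livers. Of the 48, 13 had an unadjusted p under 0.05 in females and DESeq2 called 3, 1 of them lower, where 14.4% and 3.60% of all genes were. For the interaction 0 of 48 passed, where 0.00733% of all genes did. There 3 had an unadjusted p under 0.05 and 0 passed by DESeq2, where 4.60% and 0.147% of all genes did. The sex difference passed for 0 in controls and 0 in Ahr-null livers, where 0.352% and 0.279% of all genes passed. In controls 5 were under 0.05 unadjusted and 1 passed by DESeq2, where 5.79% and 1.04% of all genes did. In Ahr-null livers 13 were under 0.05 unadjusted and 4 passed by DESeq2, where 8.68% and 1.63% of all genes did.

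The enzymes of amino acid and folate metabolism stood highest of the target groups. Of the 10 tested (11 listed) 1 rose, Mthfd1l, and 9 were above 0, with a median of 0.93. Mthfd2 at 1.19 ± 0.27 (edgeR adjusted p = 0.0533) and Aldh18a1 at 0.91 ± 0.22 (edgeR adjusted p = 0.0678) did not pass. Among 18 stress factors and stress genes 1 rose, Atf5, with a median of 0.14. The 7 tested amino acid transport genes (8 listed) held no call and a median of 0.02, with Slc38a2 at -0.57 ± 0.24 and Slc7a1 at 0.73 ± 0.45. Of 13 genes for charging tRNAs none passed, with a median of 0.20, Wars at 0.51 ± 0.15 and Iars at 0.46 ± 0.24. Unadjusted, 7 of the 10 enzymes and 8 of the 18 stress genes were under 0.05, where 15.3% of all genes were. So were 1 transport and 1 tRNA gene. DESeq2 called 4 enzymes and 4 stress genes, 1 of the latter lower, where it called 4.87% of all genes. It called 0 transport genes and 1 tRNA gene.

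Without the livers with neural transcripts, 5 of the 48 rose and 1 fell, where 1.50% of all genes were higher and 1.63% lower. Beside Mthfd1l and Atf5 these were Mthfd2 (1.24 ± 0.28, edgeR adjusted p = 0.034), Nupr1, a stress-induced chromatin protein (1.16 ± 0.28, edgeR adjusted p = 0.0452), and Tnfrsf10b, a death receptor (2.11 ± 0.53, edgeR adjusted p = 0.0463). Cebpb, a C/EBP factor, fell by 0.83 ± 0.18 (edgeR adjusted p = 0.028). These 4 are named because they passed here, after their values were seen. The call of Atf5 was lost without control male 1, 2 or 3, any control female, or Ahr-null male 1 or 3, and that of Mthfd1l also without Ahr-null female 2 or 3. Their log2 fold changes then stayed between 1.25 and 1.44 and between 2.19 and 2.64.

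**Figure D4:**
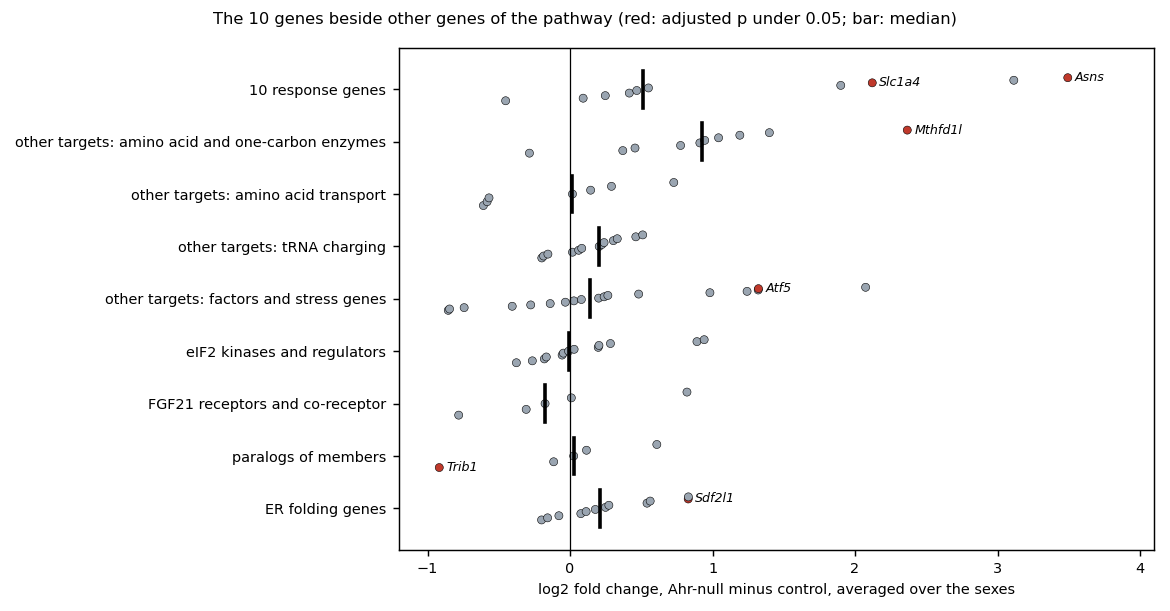
Averaged log2 fold change of Ahr-null against control livers (horizontal axis) for the 10 response genes and 8 other gene lists (vertical axis), a point per tested gene, with the median as a bar and genes at an edgeR adjusted p under 0.05 in red with their names. The 10 response genes and the metabolic enzymes have medians of 0.51 and 0.93, and the other lists have medians between -0.18 and 0.21.

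Genes upstream of ATF4 and receptors for FGF21 held no edgeR call in the fit of all livers. Of 13 eIF2 kinases and regulators none passed and the median was -0.01. Among them were Impact, an inhibitor of the amino acid sensing kinase GCN2, at 0.89 ± 0.21 (edgeR adjusted p = 0.0627), and Eif2ak3, which encodes the endoplasmic reticulum kinase PERK, at 0.94 ± 0.24 (edgeR adjusted p = 0.0818). Of 5 FGF21 receptor genes none passed, with Fgfr1 at 0.82 ± 0.20 (edgeR adjusted p = 0.0778) and the co-receptor gene Klb at -0.78 ± 0.22 (edgeR adjusted p = 0.119). Fgfr1 passed at 1.03 ± 0.17 without the livers with neural transcripts (edgeR adjusted p = 0.00699). In each of these lists 2 genes had an unadjusted p under 0.05, and DESeq2 called 2. Of 5 relatives of the 10 genes, a list with the same limit, Trib1, a pseudokinase related to Trib3, fell by 0.92 ± 0.17 (edgeR adjusted p = 0.0255) without overlap in either sex, and 4 did not pass. Trib1 went from 81.9 ± 11.8 to 42.1 ± 1.53 CPM in males and from 57.6 ± 6.23 to 31.4 ± 6.78 CPM in females (SD, n = 3 each). With library size alone it was at -0.41 and did not pass, and it passed in 11 of 21 alternative analyses. Leaving out any control, Ahr-null male 1 or 3 or Ahr-null female 2 ended its call, with values from -1.02 to -0.86. Over all genes 6 to 71 were called in those fits, beside 144 with all livers.

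Levels of the 10 genes did not move as a block across livers. Pearson's r, computed over the 12 livers from log2 CPM (prior count 2), between Fgf21 and Atf4 was 0.723, between Psat1 and Phgdh 0.746 and between Psat1 and Slc1a4 0.728. Fgf21 and Asns had r = 0.412, and Atf4 with Asns, Psat1 and Phgdh 0.221, -0.149 and -0.238. Without the livers with neural transcripts Fgf21 and Slc1a4 went from 0.675 to 0.874 and Atf4 and Slc1a4 from 0.293 to 0.684. All such values are descriptions, since the livers share the genotype groups and library scaling, and each gene was set against many others.

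**Figure D5:**
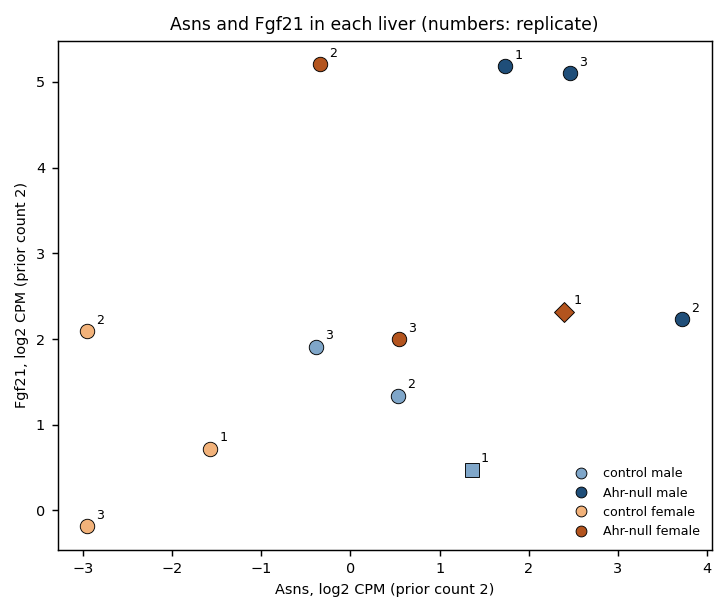
Asns (horizontal axis) against Fgf21 (vertical axis), both as log2 CPM with a prior count of 2, a point per liver, coloured by group and numbered by replicate. The 3 livers highest in Fgf21 (Ahr-null males 1 and 3 and female 2) are not the 3 highest in Asns (Ahr-null males 2 and 3 and female 1).

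The tested genes whose levels followed each of the 10 most closely over the 12 livers were found by the same measure, leaving out the 10 themselves. Asns was followed by Manf (r = 0.924) and Sdf2l1 (r = 0.895, and 0.966 over the 10 livers without neural transcripts), both genes of protein folding in the endoplasmic reticulum. For Fgf21 they were Tinag (r = 0.961) and Crkl (r = 0.908), for Slc1a4 Tnfrsf12a and Nans (r = 0.945 for both), and for Psat1 Stc2 (r = 0.948), itself a listed ATF4 target, and Dip2a (r = 0.936). Phgdh was followed by Ralgapb and Brsk1 (r = 0.928 for both), Trib3 by Mtg1 (r = 0.925) and Slc18a1, and Ddit3 by Fzr1 (r = 0.904) and Ipo4. For Sesn2 they were Cdc42bpa (r = 0.913) and Arhgef7 (r = 0.911), for Atf4 Lrp10 (r = 0.864) and Smim11 (r = 0.840), and for Chac1 Myo1e (r = 0.846) and Mavs (r = 0.825). Each is the highest of 13641 values or fewer, so a high r was to be found for any gene.

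On GRCm38 with the GENCODE M21 annotation, Atf4 lies at chr15:80255184-80257541 on the plus strand, Ddit3 at chr10:127290774-127296288 (plus) and Chac1 at chr2:119351229-119354381 (plus). The other 7 are on the minus strand: Trib3 at chr2:152337422-152344032, Sesn2 at chr4:132492032-132510501, Fgf21 at chr7:45613886-45615490, Asns at chr6:7675169-7693254, Psat1 at chr19:15904678-15947337, Phgdh at chr3:98313170-98339990 and Slc1a4 at chr11:20302180-20332713. Trib3 and Chac1 share a chromosome, and the 10 genes lie on 9 chromosomes.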

How the data were processed

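Per the labels' protocols, total RNA came from a Qiagen Micro RNeasy kit with a mean RIN of 7.0. The authors deposited whole-number counts per gene, and variance-stabilised values close to a log2 scale, a transform of the DESeq2 tool, used here only in an alternative. STAR 2.7.8, DESeq2 1.28.1, Trim Galore 0.6.5, FastQC 0.11.8 and the build GRCm38 are named in the submitters' processing notes. Neither they nor the labels name the read counter, the annotation or the use of strand.

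The counts were fitted with edgeR 4.0.16 (R 4.3.3): filterByExpr by group (7277 of 27304 genes had no count, 13641 were tested), TMM, and a robust quasi-likelihood fit with 4 group means over 12 libraries (8 residual degrees of freedom, common dispersion 0.129). There were 6 two-sided contrasts, with Benjamini-Hochberg adjusted p under 0.05 over all tested genes as the call. The SE is the fold change divided by the root of its F statistic. Nothing in the labels says that the livers came from separate litters or cages, so the p-values speak only of the spread among these 12 libraries. Replicate numbers follow accession order and pair nothing. The procedure was tested on simulated data. Alternatives used DESeq2 1.42.0 and limma 3.58.1, among 21 in all.

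The 10 genes and all lists were chosen with earlier results of these data known. The genes named were all 10, and from each other list the genes called in the averaged, interaction or sex contrasts (up to 6), or otherwise the 2 with the smallest p. Levels like those of each gene were the 2 highest Pearson r among named genes.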

Additional observations from a re-analysis of the deposited data

Results flagged for a closer look

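Trib3 differed by genotype with opposite signs in the 2 sexes: all 3 Ahr-null males were below all 3 control males, and all 3 Ahr-null females were above all 3 control females. The lower male mean leaned most on Ahr-null male 2 at 4.11 CPM. Ahr-null males 1 and 3 had 9.39 and 9.99 CPM, beside 10.7 to 12.1 CPM in control males. The male log2 fold change was -0.52 (95% interval -1.21 to 0.172), and ran from -0.73 to -0.22 with a liver left out. The difference between the genotype effects, male minus female, was -1.97 on the log2 scale (unadjusted p = 0.00199, edgeR adjusted p = 0.836), so the opposite directions did not pass the test of the difference over all genes. The value kept its sign under all 21 alternatives, from -2.20 to -1.67, and did not pass under any of them, whereas the male fold change alone turned to 0.03 when libraries were scaled by their totals alone. Groups of 3 livers are too small for the search for a single outlying liver.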

How the results depend on the processing

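Of 21 alternatives, 12 left out a liver each and 9 changed the scaling, filter, tool or set of livers. No result that passed its test changed sign under any of them. The count of the 10 genes called averaged over the sexes went from 2 to 4 with library size alone and 0 with limma-voom, and ran from 0 to 3 with a liver left out. Over all genes it went from 144 to 1053 and 114, and ran from 6 to 663, in the same settings. In females the count of the 10 went from 0 to 1 without the livers with neural transcripts, 3 with library size alone and 4 with DESeq2, and from 0 to 1 with a liver left out. There the count over all genes went from 22 to 235, 117 and 491, and ran from 3 to 153. For the sex difference in controls the count of the 10 was 2 with DESeq2 and 0 to 1 with a liver left out. Over all genes it went from 48 to 142 and ran from 19 to 101. The count of the 10 was 0 under all alternatives in males, for the interaction and for the sex difference in Ahr-null livers.

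For the other ATF4 targets the averaged count went from 2 to 6 without the livers with neural transcripts, 10 with library size alone, 9 with DESeq2 and 1 with limma-voom, and from 0 to 7 with a liver left out. In males it went from 0 to 3 with DESeq2 and 0 to 1 with a liver left out. In females it went from 1 to 2 without the livers with neural transcripts, 3 with DESeq2 and 0 with limma-voom, and 0 to 2 with a liver left out. For the sex difference in controls it was 1 without the livers with neural transcripts, 1 with DESeq2 and 1 with limma on the deposited values, and 0 to 1 with a liver left out. In Ahr-null livers it was 3 without the livers with neural transcripts, 4 with DESeq2 and 0 to 2 with a liver left out. It was 0 for the interaction under all. Calls over all genes moved with these settings too. Averaged, they were 432 without the livers with neural transcripts, 1053 with library size alone, 664 with DESeq2 and 114 with limma-voom, beside 144. DESeq2 called 106 in males and 491 in females, beside 5 and 22. For the sex difference it called 142 in controls and 223 in Ahr-null livers, beside 48 and 38. Without the livers with neural transcripts these 2 were 79 and 110. Averaged over the sexes, calls over all genes rose from 144 to 288 without Ahr-null male 2 and to 663 without Ahr-null female 1. They fell without any other single liver. Fits with fewer livers also have fewer degrees of freedom, and the cause of the shifts was not tested.

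Library size alone moved the median over all genes from 0.04 to 0.53 (log2), and Sesn2 in males from -0.19 to 0.22. Averaged fold changes ran from 1.70 to 5.23 for Asns, past the threshold in 10 of 21 alternatives, from 1.47 to 2.68 for Slc1a4 (13 of 21) and from 2.14 to 3.78 for Fgf21 (5 of 21). Single counts limit Asns, Psat1 and Phgdh in control females. No paired analysis was possible because the replicate numbers follow accession order and the labels pair no livers across groups.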

Other observations

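The 12 genes of protein folding in the endoplasmic reticulum, among which Manf and Sdf2l1 followed Asns most closely, were compared between the sexes. The list was drawn up with earlier results of these livers known, so its p-values are not independent evidence. Sdf2l1, a chaperone cofactor, stood at 12.3 ± 1.83 CPM in control males, 4.90 ± 0.628 in control females, 22 ± 5.29 in Ahr-null males and 8.70 ± 0.931 in Ahr-null females (SD, n = 3 each), with no overlap between any of these pairs of groups that differ in sex or genotype alone. It was higher in males by 1.32 ± 0.25 in controls (edgeR adjusted p = 0.0426) and by 1.34 ± 0.24 in Ahr-null livers (edgeR adjusted p = 0.0349), and rose with genotype by 0.83 ± 0.17 averaged over the sexes (edgeR adjusted p = 0.0381). It passed in 8, 10 and 9 of 21 alternatives respectively. With a liver left out, the sex difference in controls and the genotype difference passed only without Ahr-null male 2 or Ahr-null female 1, and the sex difference in Ahr-null livers only without Ahr-null male 1 or Ahr-null female 1, with values from 0.72 to 1.48. Where it did not pass, 19 to 47 of all genes did for the sex difference in controls, beside 48 with all livers. For the genotype difference 6 to 103 did, beside 144. For the sex difference in Ahr-null livers 11 to 33 did, beside 38. By edgeR the other 11 genes did not pass in any of these comparisons. Over all genes 0.352% and 0.279% passed for the sex difference in controls and Ahr-null livers, and 0.528% rose with genotype. DESeq2 called 3 of the 12 for the sex difference in controls and 5 in Ahr-null livers, where it called 1.04% and 1.63% of all genes. Unadjusted, 6 and 7 were under 0.05, where 5.79% and 8.68% of all genes were. For the sex difference 11 of the 12 were above 0 in each genotype, with medians of 0.60 and 0.68. Manf, a secreted stress protein, stood at 41.8 ± 9.94 CPM in control males and 14.6 ± 1.8 CPM in control females, a difference of 1.51 ± 0.32 (edgeR adjusted p = 0.0813), and passed at 1.34 ± 0.25 without the livers with neural transcripts (edgeR adjusted p = 0.0252).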
